A study of Mus musculus with 2 samples.

Results

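Cxcl1, Cxcl2 and Cxcl3 encode the chemokines that draw neutrophils through the receptor CXCR2, which is encoded by Cxcr2. These 4 genes were taken by symbol from the 31053 genes of both deposited count matrices and described in 18056 cells of mouse glioma, 10363 from WT and 7693 from CD169-DTR mice. GL261, a mouse glioma line, was placed in the brain of male C57BL/6 mice of 8 to 12 weeks. In CD169-DTR mice 1 Siglec1 allele, which encodes CD169, is replaced by the receptor for diphtheria toxin (DT), so the toxin reaches every cell that uses this locus and not macrophages alone. WT mice carry no receptor, and both groups received DT on day -1 and day 4. At day 10, CD45.2+ cells that excluded propidium iodide were sorted from 3 pooled mice per group and sequenced as 1 library each.

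The ligands bind CXCR2, a receptor coupled to G proteins that neutrophils carry from late maturation on, and the receptor moves these cells from marrow and blood into inflamed tissue. The ligand genes are switched on by NF-kB after IL-1, TNF or Toll-like receptor signals, and their mRNAs are short-lived, held down by ZFP36 and regnase-1 (Zc3h12a). Mice have further CXCR2 ligands in Cxcl5, Ppbp and Cxcl15, a related receptor in Cxcr1, and an endothelial chemokine-binding receptor in Ackr1. Neutrophils can make Cxcl2 themselves as they meet these signals in tissue.

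In the reference annotation (GENCODE M21, GRCm38) the ligand genes lie together on the plus strand of chromosome 5, Cxcl3 (ENSMUSG00000029379) at chr5:90786103-90789600, Cxcl1 (ENSMUSG00000029380) at chr5:90891241-90893115 and Cxcl2 (ENSMUSG00000058427) at chr5:90903871-90905938. The gap between Cxcl1 and Cxcl2 is 10.8 kb, and the gap between Cxcl3 and Cxcl1 is 102 kb. Cxcr2 (ENSMUSG00000026180) lies on chromosome 1, plus strand, at chr1:74153989-74161246. The promoters are shown to set the neighbouring ligand genes and the receptor side by side. The 100 bases before the earliest annotated start are given from RefSeq (GRCm38.p6), plus strand, 5′ to 3′, for Cxcl1 (chr5:90891141-90891240), Cxcl2 (chr5:90903771-90903870), Cxcl3 (chr5:90786001-90786100) and Cxcr2 (chr1:74153889-74153988), and capitals mark every run of at least 8 bases that the windows of all 3 ligands share.
Cxcl1: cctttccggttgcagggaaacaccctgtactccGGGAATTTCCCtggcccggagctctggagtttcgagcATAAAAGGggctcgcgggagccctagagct
Cxcl2: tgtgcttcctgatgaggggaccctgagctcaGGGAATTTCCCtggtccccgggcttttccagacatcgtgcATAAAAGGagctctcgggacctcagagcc
Cxcl3: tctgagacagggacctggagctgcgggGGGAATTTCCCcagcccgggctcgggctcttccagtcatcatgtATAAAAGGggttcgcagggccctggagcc
Cxcr2: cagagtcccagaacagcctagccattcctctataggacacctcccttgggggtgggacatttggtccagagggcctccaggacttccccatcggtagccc

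The run GGGAATTTCCC has the letters of an NF-kB element. It begins 71 (Cxcl1), 97 (Cxcl2) and 73 (Cxcl3) bases before the RefSeq start, and 0.0426% of 32851 promoter windows of 300 bases hold it on either strand. The run ATAAAAGG has the letters of a TATA box, begins 34, 57 and 29 bases before the start, and is held by 1.76% of the windows. A further shared run, CTCCAGACTCCAG, lies within the transcribed part of each window and is held by 0.0122% of them. All 3 runs together were found in 3 windows, those of the ligands, and the runs do not overlap one another. The Cxcr2 window holds none of these letters. These are matches of letters, with no binding measured.

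UMIs, that is, distinct captured mRNA molecules, number 101808996 in the WT and 84065489 in the CD169-DTR library, and the kept cells have medians of 7614 and 8008. Barcodes under 500 UMIs or above 17% mitochondrial UMIs were dropped, and 21 kept barcodes occur in both libraries. Classes were named from marker genes of clusters found without the 4 genes. Siglec1, a check of the labels, stood at 37.8 CPM (UMIs per 1000000 UMIs of the class) in WT and 12.3 CPM in CD169-DTR macrophages. With 1 library per group there is no test and no replicate, so mice, sorting and library cannot be told apart from genotype. Every interval is at 95% and covers counting error only: exact Poisson for CPM, exact Clopper-Pearson for shares, and exact conditional for ratios. Where no cell or UMI was found, the limit given is the share or level that 3 counts would make.

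Cxcl2 made up most of the ligand mRNA. It gave 94.5% of the 26193 ligand UMIs in WT and 94.2% of the 22637 in CD169-DTR cells, counted at 3′ ends, where the count does not scale with transcript length. Cxcl1 gave 2.55% and 4.29%, and Cxcl3 gave 2.95% and 1.47%. In all kept cells Cxcl2 had 24750 (WT) and 21333 (CD169-DTR) UMIs, Cxcl1 669 and 972, Cxcl3 774 and 332, and Cxcr2 602 and 717. Cxcl2 and Cxcl3 transcripts share a run of up to 157 bases, and reads that fall wholly within it belong to neither gene with certainty. That run ends 1849 bases before the 3′ end of its Cxcl2 transcript and 3285 bases before that of its Cxcl3 transcript. Other transcripts share a run of 110 bases, which ends 227 to 1687 bases before the end in Cxcl2 and 850 in Cxcl3. Cxcl1 shares at most 23 bases with Cxcl2 or Cxcl3.

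**Figure D1:**
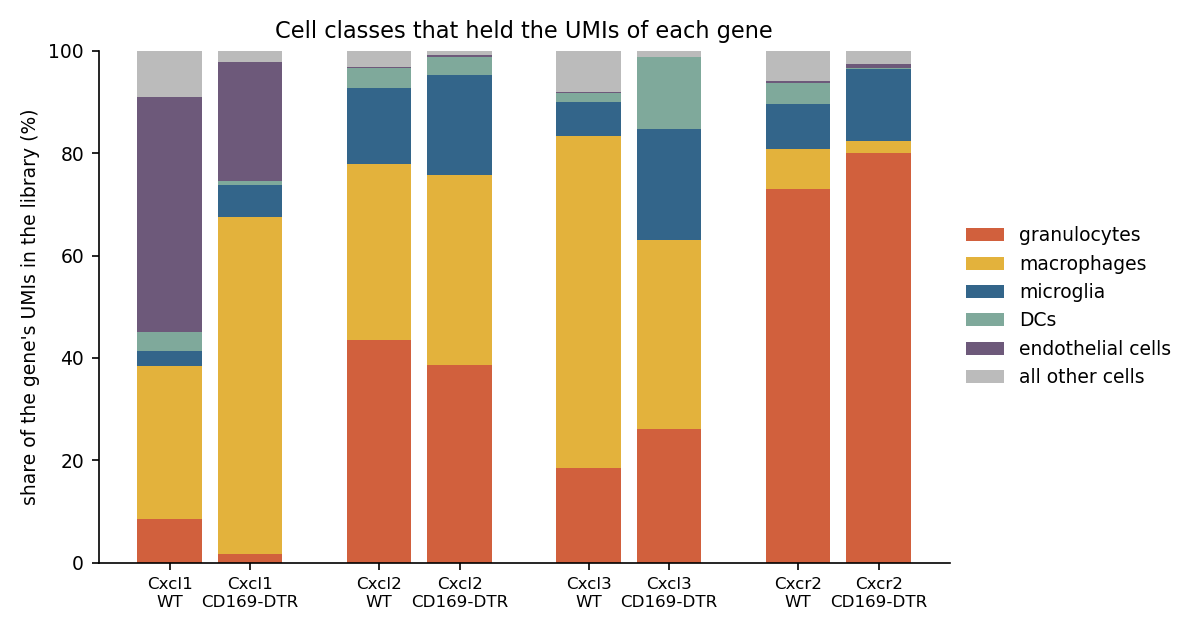
Stacked bars give the share (%) of each gene's UMIs in a library that came from each cell class, with 1 bar per gene and library. Granulocytes held 43.5% and 38.6% of Cxcl2 and 72.9% and 80.1% of Cxcr2 (WT and CD169-DTR), while macrophages held 29.9% and 65.9% and endothelial cells 45.9% and 23.3% of Cxcl1.

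Granulocytes held most of the receptor and the largest share of Cxcl2, and they were few. The class is 1 cluster led by Retnlg, S100a9 and S100a8, with all 13 granulocyte markers detected in both libraries, Ly6g included. It had 171 of 10363 WT cells, 1.65% (1.41 to 1.91), and 196 of 7693 CD169-DTR cells, 2.55% (2.21 to 2.92), with medians of 2919 and 3612 UMIs. These cells held 43.5% of all Cxcl2 UMIs in WT and 38.6% in CD169-DTR, and 72.9% and 80.1% of all Cxcr2 UMIs.

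Cxcr2 stood at 665 CPM (604 to 730) in WT and 637 CPM (586 to 691) in CD169-DTR granulocytes, a log2 ratio of WT over CD169-DTR of 0.06 (-0.12 to 0.24). The receptor was found in 126 of 171 and 156 of 196 granulocytes. After each cell was thinned to 2000 UMIs, which left out 7 WT and 11 CD169-DTR granulocytes, it was in 65.2% (57.4 to 72.5) and 61.6% (54.2 to 68.7). The highest cell had 12 UMIs in each library, so the receptor was spread over many cells at low counts.

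Outside granulocytes Cxcr2 was low, and macrophages and microglia were compared with lymphocytes, which should lack it. After thinning, a UMI was found in 0.231% of WT and 0.699% of CD169-DTR macrophages (medians of 7221 and 11817 UMIs before thinning) and in 0.108% and 0.264% of microglia (7662 and 7869 UMIs). Among WT lymphocytes it was in 0 of 461 T cells, which allows up to 0.651%, and in 0.669% of NK cells (6456 and 5554 UMIs). In CD169-DTR it was in 0 of 212 T cells, which allows up to 1.42%, and in 1 of 84 NK cells. The shares in macrophages and microglia did not exceed the limit for T cells of the same library. That limit is set by the number of T cells, so it cannot tell such low shares from background. Macrophages had 48 Cxcr2 UMIs over 2289 cells (WT) and 16 over 733 (CD169-DTR). Microglia had 52 over 4705 and 101 over 5370. Free Cxcr2 RNA, from barcodes of 10 to 100 UMIs, was estimated at 0.0020 (WT) and 0.00076 (CD169-DTR) UMIs per droplet. Its share of these UMIs was not tested. In NK cells 6 of 14 WT UMIs and 7 of 7 CD169-DTR UMIs came from 1 cell each, and these cells had 153 and 162 granulocyte marker UMIs. Mast cells and basophils had 5 Cxcr2 UMIs in 3 of 26 WT cells and 3 UMIs in 3 of 9 CD169-DTR cells, at 13.2 CPM (4.30 to 30.9) and 36.8 CPM (7.59 to 108), with a UMI in 8.33% (1.03 to 27.0) and 11.1% (0.281 to 48.3) after thinning, above the T cell limits but on few cells. B cells had none in 75 and 124 cells. In CD169-DTR, 1 barcode among the microglia held 13362 granulocyte marker UMIs of its 29644 UMIs, and its 2 Cxcr2 UMIs are among the 101 of that class.

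Cxcl2 reached 16307 CPM (16001 to 16618) in WT granulocytes and 9132 CPM (8935 to 9331) in CD169-DTR granulocytes, 1.79-fold higher in WT. It was in 149 of 171 and 154 of 196 cells, or 87.2% (81.1 to 91.9) and 74.1% (67.1 to 80.2) after thinning. In every granulocyte counted without thinning, the median was 33 Cxcl2 UMIs in WT and 12 in CD169-DTR, with a highest cell of 413 UMIs in both. The UMIs were unevenly spread, with 50% of them in 27 of 171 WT and 18 of 196 CD169-DTR granulocytes, and the 10 highest cells held 26.1% and 34.9%. Without the 10 highest cells of each library the log2 ratio went from 0.84 (0.80 to 0.88) to 1.03 (0.98 to 1.08).

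Ligand and receptor occurred in the same granulocytes. Of 171 WT cells, 111 had UMIs of both genes, 38 had Cxcl2 alone, 15 had Cxcr2 alone and 7 had neither. Of 196 CD169-DTR cells, 120 had both, 34 had Cxcl2 alone, 36 had Cxcr2 alone and 6 had neither. The counts did not follow each other across cells. Spearman's rho after thinning was 0.08 over 164 WT and -0.12 over 185 CD169-DTR cells, a description of cells that share a library.

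Granulocyte markers differed with Cxcl2. Granulocytes with 10 or more Cxcl2 UMIs, 119 in WT and 105 in CD169-DTR, had the 13 markers at 41689 and 95641 CPM in sum, against 140360 and 176500 CPM in those with fewer. S100a8, an abundant protein of resting neutrophils, was at 12517 against 42415 CPM in WT and 30147 against 56168 CPM in CD169-DTR. Retnlg, a neutrophil-secreted factor, was at 2443 against 7991 CPM and 6190 against 10308 CPM. Csf3r, another of the 13 markers, differed less, at 1321 against 1719 CPM and 1383 against 1620 CPM. Il1b, which encodes the cytokine IL-1β, went the other way, at 18575 against 9694 CPM and 15242 against 8311 CPM. Cxcr2 itself was alike in both sets, with 643 (572 to 719) against 721 CPM (604 to 853) in WT and 596.8 (530.4 to 669) against 684 CPM (607 to 769) in CD169-DTR. The sets were split on Cxcl2 after its values were seen, and the cells near the split are a continuous range. In these pooled levels deep cells weigh more. Cell by cell the relation was weak, with a Spearman's rho of Cxcl2 and marker share of -0.22 over 164 WT and -0.27 over 185 CD169-DTR cells.

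**Figure D2:**
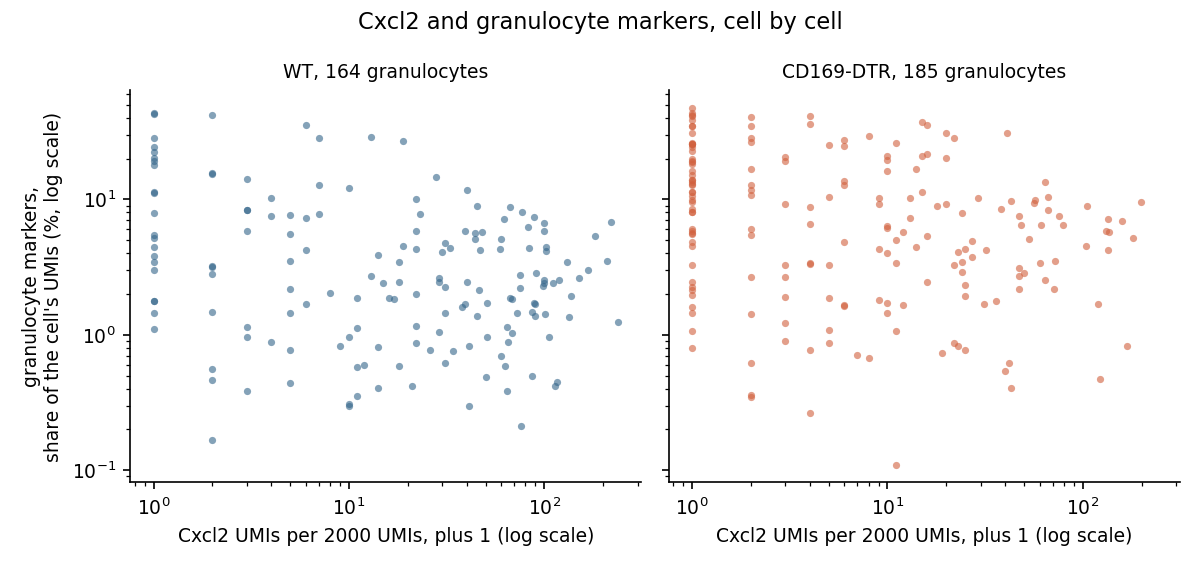
Each point is 1 granulocyte of at least 2000 UMIs, with Cxcl2 UMIs after thinning to 2000 plus 1 on the x axis (log scale) and the share of its UMIs from 13 granulocyte markers (%) on the y axis (log scale). Cells with high marker shares sit mostly at low Cxcl2, and the median marker share is 2.55% in WT and 6.44% in CD169-DTR.

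The sum of the 13 markers differed between the libraries. It was 69677 CPM in WT and 132470 CPM in CD169-DTR granulocytes, most of it from S100a9 and S100a8. S100a9 was at 34972 and 64783 CPM, S100a8 at 20998 and 41997 CPM and Ly6g at 60.6 and 172 CPM. Camp, Ngp and Ltf, granule proteins made during maturation in the marrow, were at 1941 and 5286, 1993 and 5310, and 489 and 1383 CPM. Granulocytes with at least 10 UMIs of these 3 genes numbered 7 of 171 in WT and 14 of 196 in CD169-DTR. Without them Cxcl2 stood at 17964 and 10550 CPM, a log2 ratio of 0.77 (0.73 to 0.81). In the same cells S100a8 was at 12396 and 27644 CPM and Csf3r at 1558 and 1757 CPM, so the markers did not move alike. The part of the remaining marker difference in the Cxcl2 ratio was not tested.

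Cxcl3 in granulocytes was at 217 CPM (182 to 255) for WT against 96.5 CPM (77.3 to 119) for CD169-DTR, in 22 and 14 cells. All 22 of the WT cells and 13 of the 14 CD169-DTR cells also had Cxcl2, with medians of 70.5 and 70 Cxcl2 UMIs. Cxcl1 was in 3 granulocytes of each library, with 50 of the 57 WT UMIs in 1 cell and 11 of the 16 CD169-DTR UMIs in another. Among the 4622 genes with at least 30 UMIs in granulocytes, 4.35% were at least 2-fold higher in WT and 5.5% at least 2-fold lower. Of the 4 genes, Cxcl1 and Cxcl3 were past 2-fold higher and none was past 2-fold lower, and the Cxcl1 ratio fell to 0.94 (-0.94 to 2.93) without the highest cell of each library.

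Macrophages were the second large source, with 34.4% of Cxcl2 UMIs in WT and 37.1% in CD169-DTR. They numbered 2289 in WT and 733 in CD169-DTR, 22.1% (21.3 to 22.9) and 9.53% (8.88 to 10.2) of the cells. Cxcl2 stood at 458 CPM (448 to 468) in WT macrophages and at 808 CPM (791 to 827) in those of CD169-DTR mice, Cxcl1 at 10.8 CPM (9.33 to 12.4) and 65.6 CPM (60.6 to 70.8), and Cxcl3 at 27.0 CPM (24.7 to 29.5) and 12.5 CPM (10.4 to 14.9). So Cxcl1 and Cxcl2 were higher in CD169-DTR and Cxcl3 in WT. The 10 macrophage markers summed to 8254 CPM in WT and 4742 CPM in CD169-DTR macrophages, with none at 0, and their part in these ratios was not tested. Macrophages had 11193 genes of 30 or more UMIs, of which 1.32% were at least 2-fold lower in WT and 3.17% at least 2-fold higher. Of the 4 genes, Cxcl1 was past 2-fold lower in WT and Cxcl3 past 2-fold higher.

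**Figure D3:**
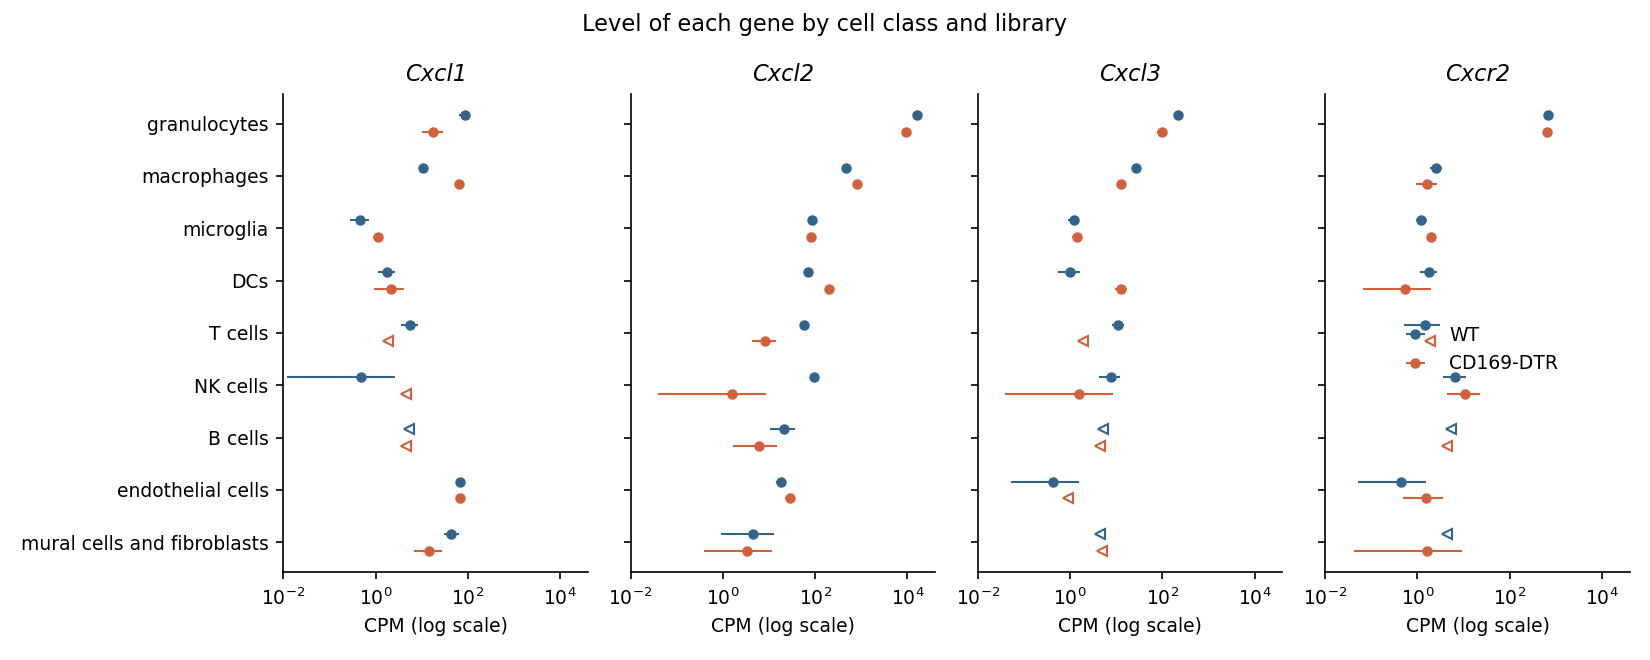
Points give the level of each gene in CPM (log scale) by cell class, WT in blue and CD169-DTR in orange, with exact Poisson intervals. An open triangle marks a class with no UMI, placed at the level of 3 UMIs. Granulocytes are highest for Cxcl2, Cxcl3 and Cxcr2, and the Cxcl1 level of WT granulocytes comes mostly from 1 cell with 50 of 57 UMIs.

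Cxcl1 in macrophages rested on a few cells. It was in 31 of 2289 WT and 28 of 733 CD169-DTR macrophages, and 5 WT and 3 CD169-DTR cells held 50% of its UMIs. The highest cell had 35 of the 200 WT UMIs and the highest in CD169-DTR had 175 of 641. The log2 ratio was -2.61 (-2.84 to -2.37), a 6.09-fold higher level in CD169-DTR. Without the highest cell of each library it was -2.43 (-2.69 to -2.17). Without the 10 highest it was -1.28 (-1.91 to -0.67), on 41 WT and 52 CD169-DTR UMIs. Removing 10 cells takes a larger fraction of the 733 CD169-DTR than of the 2289 WT macrophages, which by itself moves such ratios towards WT. After thinning, a Cxcl1 UMI was found in 0.693% of WT macrophages (0.388 to 1.14), against 1.54% in CD169-DTR (0.770 to 2.74), beside 0.868% (0.237 to 2.21) of WT T cells, so the share alone does not set WT macrophages apart from T cells. The T cell share rests on 4 of 461 cells, and before thinning 1 T cell held 17 of 24 UMIs, so it is no clean background. In WT microglia the thinned share was 0.0433%. The free RNA was estimated at 0.0033 (WT) and 0.0026 (CD169-DTR) Cxcl1 UMIs per droplet, against counts of 20 to 175 in the 3 highest macrophages of each library.

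Cxcl2 in macrophages was spread wider. It was in 504 of 2289 WT and 230 of 733 CD169-DTR macrophages, and in 15.6% (14.1 to 17.2) and 20.3% (17.4 to 23.4) after thinning. At the same depth a UMI was in 4.12% of WT T cells (2.50 to 6.36) and in 1.89% of CD169-DTR T cells (0.516 to 4.76). Cells with 10 or more Cxcl2 UMIs, 167 WT and 111 CD169-DTR macrophages, held 87.9% and 95.4% of the UMIs. The log2 ratio was -0.82 (-0.86 to -0.78), and -0.66 (-0.71 to -0.60) without the 10 highest cells. The high cells carried macrophage markers at 6019 CPM in WT and 3715 CPM in CD169-DTR against 8535 and 4978 CPM in the other macrophages, and granulocyte markers at 344 and 293 CPM against 228 and 198 CPM. In granulocytes these markers were at 69677 and 132470 CPM.

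Cxcl3 in macrophages was decided by 2 WT cells. These had 197 and 139 of the 502 WT UMIs, while the highest CD169-DTR cell had 16 of 122. The log2 ratio was 1.12 (0.83 to 1.41) with all cells, 0.60 (0.28 to 0.93) without the highest cell of each library and 0.02 (-0.55 to 0.60) without the 10 highest. The share of macrophages with a UMI had the other direction from the level, 1.25% (0.823 to 1.81) for WT against 2.10% (1.18 to 3.44) for CD169-DTR after thinning, so no order is read from it. The WT cell with 197 Cxcl3 UMIs had no UMI of Cxcl1 or Cxcl2, and the cell with 139 had 8 of Cxcl2 and 2 of Cxcl1.

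**Figure D4:**
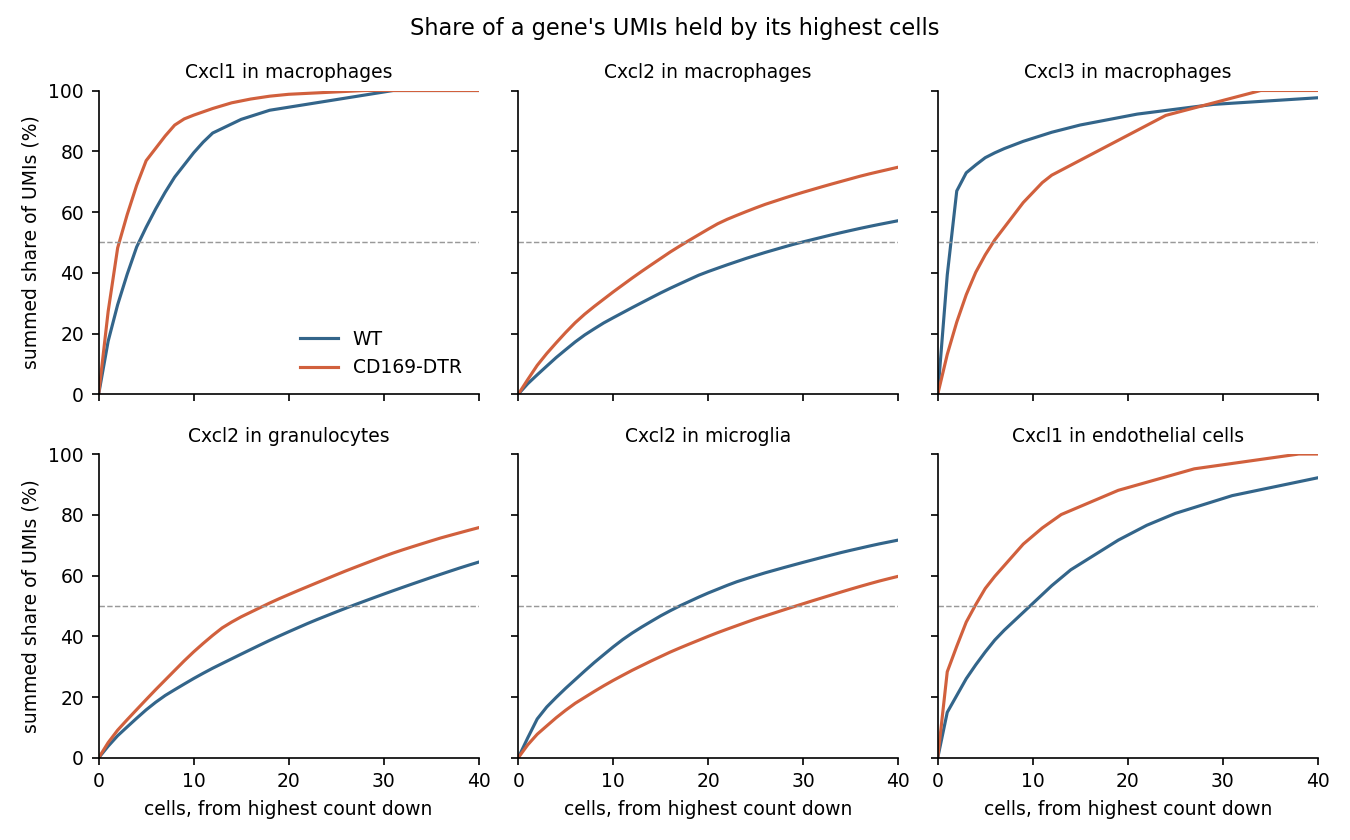
Each line gives the summed share (%) of a gene's UMIs held by the cells with the highest counts, ranked from the highest down, for WT (blue) and CD169-DTR (orange), with a dashed line at 50%. In macrophages Cxcl1 and Cxcl3 pass 50% within 2 to 6 cells, and Cxcl2 within 30 (WT) and 18 (CD169-DTR) cells.

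Most macrophages with a ligand had UMIs of 1 ligand gene, 466 of 524 in WT and 200 of 241 in CD169-DTR, but those with Cxcl1 or Cxcl3 mostly had Cxcl2 as well. Of 31 WT macrophages with Cxcl1, 26 also had Cxcl2, and of 28 in CD169-DTR, 25 did, which is 83.9% and 89.3% against 504 of 2289 and 230 of 733 in all macrophages. Of 52 WT macrophages with Cxcl3, 37 had Cxcl2, and of 34 in CD169-DTR, 26 did. All 3 ligands were in 5 WT and 10 CD169-DTR macrophages. The cells with Cxcl1 were also deeper, with medians of 13431 and 16577 UMIs against 7221 and 11817 in all macrophages. The part of depth in these counts was not tested. The 3 highest CD169-DTR cells for Cxcl1 had 382, 280 and 307 UMIs of Cxcl2 and none of Cxcl3.

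Macrophages comprised 3 clusters, and the ligand was densest in the one led by Vcan and Chil3, genes of monocytes and newly arrived cells. There Cxcl2 stood at 651 CPM (635 to 667) in 1038 WT cells and 1619 CPM (1578 to 1661) in 303 CD169-DTR cells, and Cxcl1 at 12.5 CPM (10.4 to 14.9) and 131 CPM (120 to 144). In the cluster led by Gpnmb, Pf4 and Ms4a7 Cxcl2 was at 222 CPM (212 to 233) and 281 CPM (267 to 295), and Cxcl1 at 9.35 CPM (7.34 to 11.7) and 26.1 CPM (22 to 30.8). In the small cluster led by Ear2 and Cd300e, genes of non-classical monocytes, Cxcl2 was at 361 CPM (317 to 410) and 648 CPM (586 to 714), and Cxcl3 had no UMI in 98 and 94 cells. Cxcl2 was thus higher in CD169-DTR in each cluster when all cells were counted. Without the 10 highest cells of each library the Gpnmb cluster had a log2 ratio of 0.47 (0.33 to 0.62), while the Vcan cluster kept -1.10 (-1.16 to -1.03). In the Gpnmb cluster 10 cells are a larger fraction of the 336 CD169-DTR than of the 1153 WT cells. Its change of sign cannot be told apart from this uneven removal.

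Cxcl3 differed between these clusters. It was at 25 CPM (21.7 to 28.8) in WT and 5.48 CPM (3.70 to 7.82) in CD169-DTR cells of the Gpnmb cluster, and at 30.4 CPM (27.1 to 34.0) and 25 CPM (20.1 to 30.6) in the Vcan cluster. The highest cell held 139 of 198 WT UMIs in the Gpnmb cluster and 197 of 304 in the Vcan cluster.

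Siglec1 and the ligands were compared within macrophages, in cells thinned to 2000 UMIs. WT macrophages with a Siglec1 UMI, 519 cells, had Cxcl2 at 274 CPM (243 to 307), and the 1647 without one at 398 CPM (377 to 420). In CD169-DTR the values were 521 CPM (424 to 633) in 96 cells and 779 CPM (731 to 830) in 619 cells. The Cxcl2 level was thus lower in cells with a Siglec1 UMI in both libraries, but the share of cells with Cxcl2 did not follow it, at 15.0% (12.1 to 18.4) against 15.8% (14.1 to 17.6) in WT and 25% (16.7 to 34.9) against 19.5% (16.5 to 22.9) in CD169-DTR, so no order is read. Cxcl1 was at 1.93 CPM (0.233 to 6.96) against 9.41 CPM (6.39 to 13.4) in WT, on 2 and 31 UMIs, and at 57.3 CPM (28.6 to 103) against 50.9 CPM (39.1 to 65.1) in CD169-DTR. Cxcl3 was at 2.89 CPM (0.596 to 8.45) against 23.1 CPM (18.2 to 28.9) in WT, and in CD169-DTR it had no UMI in 96 cells and was at 22.6 CPM (15.0 to 32.7) in the others. The absence of a Siglec1 UMI does not show that a cell lacks the gene, and CD169-DTR cells with a UMI had a median of 16321 UMIs before thinning, against 11378 in those without.

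Microglia, the resident macrophages of the brain, held 14.8% of WT and 19.6% of CD169-DTR Cxcl2 UMIs in 4705 and 5370 cells. Cxcl2 was at 85.5 CPM (82.8 to 88.4) and 80.2 CPM (77.8 to 82.7), a log2 ratio of 0.09 (0.03 to 0.16), which was -0.14 (-0.21 to -0.06) without the 10 highest cells. After thinning, a UMI was found in 3.12% of WT microglia (2.64 to 3.66) and 3.50% of those in CD169-DTR (3.02 to 4.03), beside 4.12% and 1.89% of T cells, so in WT the share over all microglia does not exceed that of T cells. WT T cells included 6 cells with 10 or more Cxcl2 UMIs, so their share is no clean background. The share ran from 0% to 4.34% in 8 WT clusters of microglia and was 24.0% in the remaining cluster. Cxcl1 was at 0.468 CPM (0.286 to 0.722) on 20 UMIs and 1.15 CPM (0.880 to 1.48) on 60 UMIs, and Cxcl3 at 1.19 CPM (0.888 to 1.57) and 1.38 CPM (1.08 to 1.74). Of 13131 genes with at least 30 UMIs in microglia, 1.06% were at least 2-fold lower in WT and 1.15% at least 2-fold higher. Of the 4 genes Cxcl1 was past 2-fold lower and none past 2-fold higher.

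A single microglial cluster stood out. The cluster led by Dusp8, Il1a, Egr3 and Atf3 had 333 WT and 515 CD169-DTR cells, 7.08% and 9.59% of the microglia, and 77.3% and 59.8% of their Cxcl2 UMIs. Cxcl2 was at 750 CPM (723 to 778) in WT and 432 CPM (415 to 449) in CD169-DTR cells of this cluster, and in 24.0% and 15.8% of them after thinning. The log2 ratio was 0.80 (0.72 to 0.87), and 0.57 (0.47 to 0.67) without the 10 highest cells. In the 8 other microglial clusters the ratio was below 0, from -2.13 (-3.03 to -1.33) to -0.19 (-0.61 to 0.22), with intervals below 0 in 5 of them. With all cells counted, the class ratio near 0 thus sums opposite directions. Of the 8 clusters, the one of dividing cells led by Pbk and Prc1 had the most Cxcl2 UMIs, at 59.9 CPM in WT and 99.7 CPM in CD169-DTR (-0.74, -0.93 to -0.54). Some ratios rested on few cells. Without the highest cell of each library the cluster led by Ifnb1 had -0.40 (-0.88 to 0.07). Without the 10 highest the cluster led by Cd5l had 0.36 (-0.37 to 1.09), while that led by C4b kept -1.23 (-1.83 to -0.67). The cluster led by Gm26735 had 20 Cxcl2 UMIs in 994 WT cells, fewer than the estimate of 0.125 free UMIs per droplet would give. That estimate was thus too high for these cells, and the part of free RNA was not tested. In the cells of the Dusp8 cluster 18 NF-kB factors and feedback genes summed to 6639 and 7257 CPM, against 2026 and 2445 CPM over all microglia. The 16 genes known to be induced by tissue dissociation and handling summed to 29102 and 33161 CPM there, against 8738 and 10963 CPM over all microglia. The leading genes of this cluster include Nfkbiz of the NF-kB list and Atf3 of the handling list, and all microglia include the cluster itself. These sums are therefore not independent of how the cluster was found. The part of handling in these levels was not tested.

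Endothelial cells had Cxcl1 at a like level in both libraries when all cells were counted. They held 45.9% of Cxcl1 UMIs in WT and 23.3% in CD169-DTR, at 66.3 CPM (59.1 to 74.2) and 69.4 CPM (60.6 to 79.0), a log2 ratio of -0.06 (-0.32 to 0.19). The gene was in 61 of 412 WT and 38 of 283 CD169-DTR cells, or 6.33% (4.14 to 9.20) and 5.84% (3.37 to 9.31) after thinning, against 0.868% of WT T cells and 0 of 212 CD169-DTR T cells, which allows up to 1.42%. In contrast to macrophages, 14 of 61 and 7 of 38 of these cells also had Cxcl2. The highest cell had 46 of 307 WT and 64 of 226 CD169-DTR UMIs, and without the 10 highest of each library the log2 ratio was 0.78 (0.34 to 1.23). These 10 cells are a larger fraction of the 283 CD169-DTR than of the 412 WT cells, which by itself moves the ratio towards WT. A sort for CD45.2 should remove endothelial cells, so these are the ones that passed the gate and need not represent the tumor vessels. Nearly all of the UMIs, 304 and 220, lay in the cluster led by Cldn5, a tight-junction gene of brain vessels, and 3 and 6 in the cluster led by Igfbp3 and Plvap.

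Mural cells and fibroblasts had Cxcl1 at 44.1 CPM (29.7 to 62.9) in 75 WT cells and 14.7 CPM (6.72 to 27.9) in 52 CD169-DTR cells, on 30 and 9 UMIs. Dendritic cells had Cxcl2 at 69.5 CPM (65.2 to 74.0) in 1237 WT cells and 204 CPM (190 to 219) in 251 CD169-DTR cells. Here 1 WT cell held 409 of 975 UMIs, and without the highest cell of each library the log2 ratio went from -1.55 (-1.69 to -1.41) to -2.06 (-2.22 to -1.89). Nearly all of it, 894 and 752 UMIs, was in the cluster led by Cd209a, a gene of monocyte-derived and conventional type 2 dendritic cells. Cxcl3 in dendritic cells had 14 WT and 47 CD169-DTR UMIs, 41 of the latter in 1 cell.

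Lymphocytes should lack the ligands, and most did. In CD169-DTR, T cells had 13 Cxcl2 UMIs and NK cells 1, while in WT they had 244 and 205. Of the WT UMIs, 165 in T cells and 188 in NK cells came from 6 cells each with 10 or more UMIs. Of these 6 NK cells 5 were called doublets, and their granulocyte markers stood at 9856 CPM against 112 CPM in the other NK cells. Of the 6 T cells 1 was called a doublet, and none had 10 or more granulocyte marker UMIs. Free Cxcl2 RNA was estimated at 0.125 UMIs per droplet in WT and 0.045 in CD169-DTR, beside 493 and 218 T cells and 330 and 87 NK cells. The WT estimate was too high for some microglia. B cells had 12 and 4 Cxcl2 UMIs in 75 and 124 cells, and no UMI of Cxcl1 or Cxcl3. After thinning Cxcl2 was in 0 of 75 WT and 0 of 120 CD169-DTR B cells, which allows up to 4.0% and 2.5%.

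**Figure D5:**
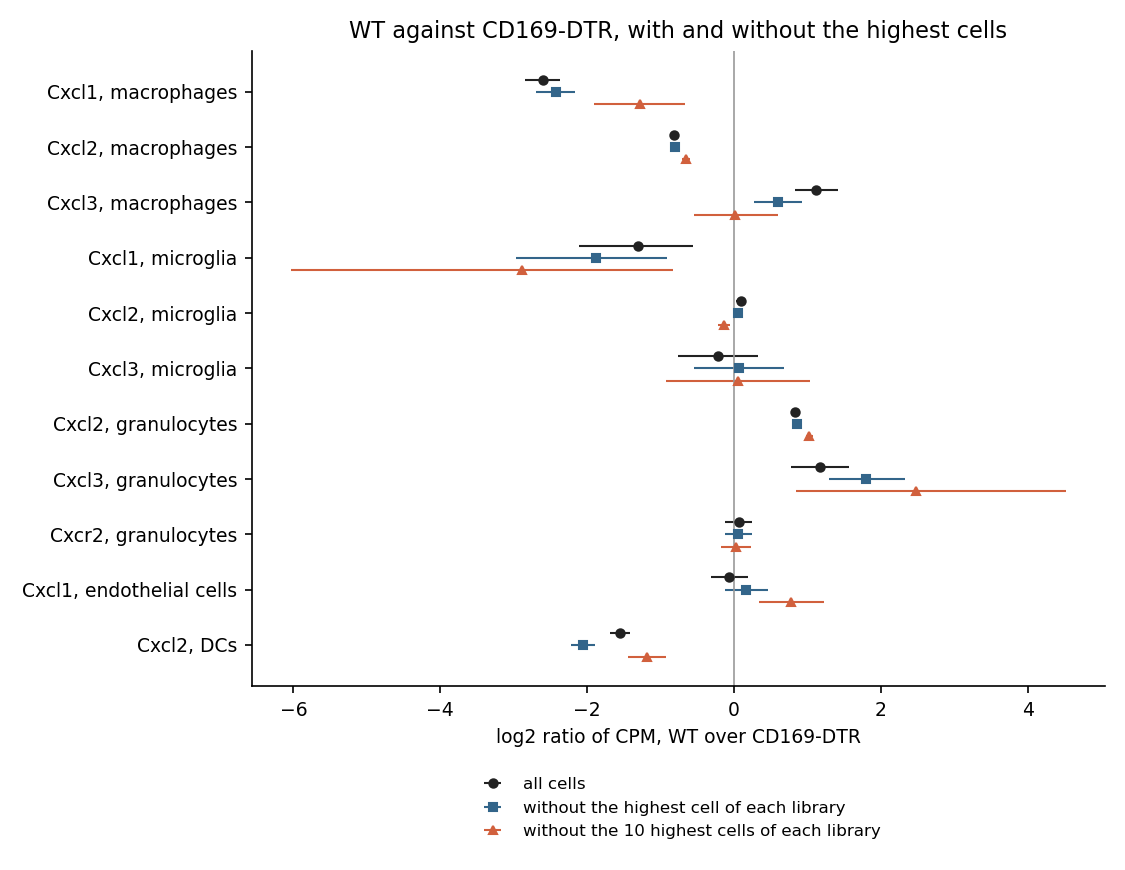
Points give the log2 ratio of CPM, WT over CD169-DTR, with exact conditional intervals, for all cells (black), without the highest cell of each library (blue) and without the 10 highest (orange). Cxcl2 in granulocytes stays between 0.84 and 1.03, whereas Cxcl3 in macrophages moves from 1.12 to 0.02.

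The other CXCR2 ligands were near 0. Cxcl15 had no UMI in granulocytes, macrophages, microglia or endothelial cells. Cxcl5 had 3 UMIs in WT macrophages and 1 in WT microglia, and Ppbp, a platelet chemokine, reached 1.02 CPM in CD169-DTR macrophages on 10 UMIs. Cxcr1 was confined largely to granulocytes among these 4 classes, at 18.2 CPM in WT and 27.7 CPM in CD169-DTR on 12 and 25 UMIs. Ackr1, the endothelial chemokine binder, was at 233 CPM in WT and 93.3 CPM in CD169-DTR endothelial cells.

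The 15 other chemokines and receptors of granulocytes had 10 genes with at least 30 UMIs in granulocytes, of which 1 was at least 2-fold higher in WT and 2 lower, with a median log2 ratio of -0.19 beside -0.11 over all 4622 genes. Of those 4622 genes 4.35% were at least 2-fold higher in WT and 5.5% lower. Ccl4, a chemokine for monocytes and lymphocytes, was at 8779 and 2353 CPM (1.90, 1.83 to 1.97). Fpr1 and Fpr2, receptors of bacterial and host peptides on neutrophils, were at 54.5 and 121 CPM (-1.15, -1.74 to -0.59) and at 59.1 and 126 CPM (-1.10, -1.66 to -0.56). In macrophages 9 genes of this list had 30 UMIs, 1 at least 2-fold lower and none higher, with a median of -0.02 beside -0.05 over all genes. Over all genes of macrophages 1.32% were at least 2-fold lower and 3.17% higher. Fpr1 was there at 1.13 and 3.27 CPM (-1.53, -2.40 to -0.69) on 21 and 32 UMIs, and C5ar1, the receptor of complement C5a, at 75 and 123 CPM (-0.71, -0.83 to -0.60). In microglia none of 8 genes was past 2-fold, and Cxcr4, the receptor of CXCL12, was at 15.8 and 9.25 CPM (0.77, 0.60 to 0.94).

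Of the 14 inducing cytokines and receptors, 8 had 30 UMIs in granulocytes and 1 was past 2-fold, Il1a, which encodes IL-1α, at 217 and 59.9 CPM (1.85, 1.39 to 2.33). The median of the list was 0.35, beside -0.11 over all genes, of which 4.35% were at least 2-fold higher in WT and 5.5% lower. Il1b was at 16056 CPM in WT and 12086 CPM in CD169-DTR granulocytes, at 899 and 763 CPM in macrophages and at 202 and 252 CPM in microglia. In macrophages 9 genes had 30 UMIs and 1 was past 2-fold, Il6, a cytokine of acute inflammation, at 6.79 and 3.27 CPM (1.05, 0.48 to 1.66). The median was 0.20, beside -0.05 over all genes, of which 3.17% were at least 2-fold higher in WT and 1.32% lower. In microglia none of 10 was past 2-fold and the median was -0.24, beside -0.04 over all genes. Il17a had 2 UMIs over the granulocytes, macrophages, microglia and endothelial cells of both libraries, all in WT microglia. It was also above 0 in WT dendritic cells. T cells are not among these classes, so the values do not show how much Il17a the tumor held.

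All 18 NF-kB factors and feedback genes had 30 UMIs in each of the 3 classes. In macrophages 1 was at least 2-fold higher in WT, Traf1, an adaptor of TNF receptors, at 199 and 84.1 CPM (1.24, 1.13 to 1.35), none was lower, and the median was 0.23. Over all genes of macrophages 3.17% were at least 2-fold higher and 1.32% lower, with a median of -0.05. In granulocytes none was past 2-fold and the median was 0.27 beside -0.11 over all genes, with Traf1 at 89.3 and 45.5 CPM (0.97, 0.37 to 1.59). In microglia none was past 2-fold, the median was -0.14 beside -0.04 over all genes, and Traf1 was at 7.65 and 5.71 CPM (0.42, 0.19 to 0.65).

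Among 9 genes that control unstable cytokine mRNA, 9 (macrophages and microglia) and 8 (granulocytes) had 30 UMIs and none was past 2-fold, with medians of 0.14, -0.09 and -0.09. Among 11 genes of signalling below CXCR2, 11, 11 and 9 had 30 UMIs and none was past 2-fold, with medians of -0.22, -0.12 and -0.46. Over all genes the medians of these classes were -0.05, -0.04 and -0.11. Grk6, a kinase that turns off chemokine receptors, was at 28.8 and 55.5 CPM in granulocytes (-0.95, -1.79 to -0.16), and Arrb1, which encodes β-arrestin 1, at 11.4 and 18.1 CPM in macrophages (-0.67, -0.97 to -0.38).

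The 16 genes induced by handling had no member past 2-fold in macrophages, microglia or granulocytes. Their medians were 0.20, -0.41 and 0.03, beside -0.05, -0.04 and -0.11 over all genes. Hspa1b, a heat shock protein gene, was at 1099 and 652 CPM in macrophages (0.75, 0.71 to 0.79) and at 415 and 247 CPM in microglia (0.75, 0.72 to 0.78). Dusp1, a phosphatase gene of the early stress response, was at 173 and 284 CPM in microglia (-0.72, -0.76 to -0.68). Atf3, a stress transcription factor, was at 456 and 672 CPM (-0.56, -0.58 to -0.53), and Dnajb1, a chaperone gene, at 143 and 203 CPM (-0.51, -0.55 to -0.46).

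The genes with the closest pattern were found over 49 points, each a named cluster of 1 library with at least 20 cells, among 11224 genes with at least 500 UMIs. The points share libraries and marker-based classes, so the correlations (Pearson's r of log2 CPM plus 1) are descriptions. A UMI was present in 33 of the points for Cxcl1, 48 for Cxcl2, 30 for Cxcl3 and 39 for Cxcr2, and the other points are zeros. Cxcr2 was closest to granulocyte genes, Retnlg (0.85), Mmp9 (0.84), S100a8 (0.84), Stfa2l1 (0.83) and S100a9 (0.82). Cxcl2 was closest to Slc7a11, a cystine transporter gene (0.87), Cebpb, a myeloid transcription factor gene (0.86), Rnf149 (0.83), Clec4e (0.82) and Cd300ld (0.82). Cxcl3 was closest to Mmp8 (0.80), Tmem189 (0.77), Ccr1 (0.76), 4930430E12Rik (0.75) and Slc7a11 (0.74). Cxcl1 stood apart from the other ligands and was closest to Ets2 (0.74), Fas (0.74), Plekhg1 (0.74), Thbd, an endothelial anticoagulant gene (0.73), and Chmp3 (0.72). Its r with Cxcl2 was 0.48 and with Cxcl3 0.42, while Cxcl2 and Cxcl3 had 0.73.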

How the data were processed

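CD45.2+ cells of GL261 gliomas were profiled as 1 droplet library per genotype. Per the labels and file headers, the authors made UMI counts with Cell Ranger 3.1.0 on mm10 and deposited counts of every barcode, unfiltered and not normalised. Barcodes under 500 UMIs or above 17% mitochondrial UMIs were dropped. Libraries were integrated with Seurat 5.3.0 (2000 features without the 4 genes, 50 dimensions), clustered on 30 dimensions at resolution 1 and named from marker lists, by thresholds set after the data were seen. A name needed 3 markers with at least 10 UMIs and 25% of the highest cluster's level. Doublets, which stayed in, were called with Scrublet (scanpy 1.11.5) in WT. In CD169-DTR it marked too few cells and the 5% with the highest scores were taken. Class sums are CPM. Shares of cells were computed after thinning to 2000 UMIs, a depth chosen after the data were seen. Free RNA came from barcodes of 10 to 100 UMIs. Its amount per droplet is an estimate, scaled on microglial genes found in lymphocytes. Named genes are the 4 genes, the 3 highest and 3 lowest listed genes by log2 ratio in macrophages, microglia and granulocytes, and the 5 most alike genes. The members and lists were chosen with earlier results of these data known. The ratio step was tested on simulated data. The 10 alternatives set at the start and 3 added later are given further on.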

Additional observations from a re-analysis of the deposited data

Results flagged for a closer look

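For 2 genes the log2 ratio (WT over CD169-DTR) had opposite signs in different cell classes, with counting intervals that exclude 0 with and without the highest cell of each library, among classes of at least 50 cells in each library. With 1 library per genotype the difference between classes was not tested.

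Cxcl2 was higher in WT in granulocytes (0.84), T cells (2.84) and NK cells (5.96), and lower in WT in macrophages (-0.82) and dendritic cells (-1.55). Free Cxcl2 RNA was estimated at 0.125 UMIs per droplet in WT and 0.045 in CD169-DTR. By level the order was the other way, with Cxcl2 at 230 CPM of the free RNA in WT and 286 CPM in CD169-DTR. The WT estimate was too high for the microglial cluster led by Gm26735, which had 20 Cxcl2 UMIs in 994 cells. No order of free RNA is read, and its part in the T and NK cell ratios was not tested. The T cell ratio was 2.41 (1.60 to 3.35) and the NK cell ratio 3.07 (0.45 to 8.43) without called doublets, on 24 WT UMIs and 1 CD169-DTR UMI in NK cells, and without the highest cell as well the NK interval reached below 0 (lower bound -0.21). Plasmacytoid dendritic cells, with 103 and 11 cells, had 228 WT and 1 CD169-DTR Cxcl2 UMIs, a log2 ratio of 4.70 (2.21 to 10.01), and 2.80 (0.28 to 8.12) without called doublets. Cxcl1 was higher in WT in mural cells and fibroblasts (1.58) and lower in WT in macrophages (-2.61) and microglia (-1.30). Without called doublets the mural and fibroblast ratio was 1.00 (-0.18 to 2.30). The causes were not tested.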

How the results depend on the processing

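Of the log2 ratios of the ligands in macrophages and microglia and of Cxcl2 and Cxcr2 in granulocytes, 65 recomputed values stayed within the counting interval and 20 did not, 2 of them with the sign turned. The sign also turned within intervals that span 0. Cxcl3 in microglia went from -0.21 to 0.09 at a maximum of 10% mitochondrial UMIs, 0.07 without the highest cell and 0.06 without the 10 highest. Cxcr2 in granulocytes went from 0.06 to -0.04 without cells rich in Camp, Ngp and Ltf. The cause was not tested. Without the 10 cells highest for the gene, chosen after seeing the data, Cxcl1 was -1.28 in macrophages and -2.89 in microglia, Cxcl2 was -0.66 in macrophages, 1.03 in granulocytes and -0.14 in microglia, where the sign turned, and Cxcl3 was 0.0151 in macrophages. In macrophages the removal was uneven, because 10 cells are a larger fraction of 733 CD169-DTR than of 2289 WT cells. Without the highest cell Cxcl3 in macrophages was 0.60. With the same weight per cell Cxcl2 was -1.12 and Cxcl3 0.0172 in macrophages, and with the same weight per macrophage cluster, chosen after seeing the data, Cxcl1 was -2.95 and Cxcl2 -1.05. After subtraction of free RNA Cxcl1 in microglia was -3.01, Cxcl2 in microglia turned to -0.0074, and Cxcl2 in granulocytes was 1.00. The subtraction used the estimated amount per droplet, which was too high for Cxcl2 in some WT microglia, so these values may be overcorrected. With the libraries merged without integration Cxcl2 was -0.77 in macrophages and 0.0088 in microglia. With median-ratio scaling Cxcl2 was -0.77 in macrophages and 0.89 in granulocytes. Cxcl2 in granulocytes was 0.89 without doublets and 0.77 without cells rich in Camp, Ngp and Ltf, chosen after seeing the data. Over all settings Cxcl1 in macrophages ran from -2.95 to -1.28, Cxcl2 in granulocytes from 0.77 to 1.03, and Cxcr2 in granulocytes from -0.04 to 0.23. Without thinning, 18 shares of cells with a UMI lay outside the interval of the thinned share and 6 within it. No paired analysis was possible because each group has 1 library. Depth limits the low genes, with 41 WT and 52 CD169-DTR Cxcl1 UMIs left in macrophages without the 10 highest cells.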
